A study of Mus musculus with 15 samples.

Results

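The genes described here encode laminin chains and the laminin receptors and cytoskeletal linkers of the epithelial hemidesmosome: Lama3, Lama5, Lamb3 and Lamc1 for laminins, Itga3, Itga6 and Itgb4 for integrins, and Dst and Plec for plakins. They were chosen by gene symbol, and all 9 were found among 21886 genes with RPKM values (read numbers relative to gene length and to the library total) and among 14301 genes with counts. All 9 passed the filters on low values. Col17a1, the hemidesmosome collagen, is not among the 9 and is given beside them.

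The samples were prostate epithelial cells of C57BL/6 mice grown as organoids, with 2 RNA sequencing libraries in each of 6 groups. In 4 groups, from 3-month-old mice, all libraries, control included, shared the same altered background: control had no further deletion, and the others were Setd2 null (Setd2PC-/-), Ezh2 null (Ezh2PC-/-) and double null (Setd2PC-/-;Ezh2PC-/-). The other pair of groups came from 2-month-old mice with a different altered background, with wild-type Ezh2 or with the altered enzyme K735R, and was never fitted together with the first 4. The driver of the deletions that the labels write as PC is not given in the sources used here. Each library of the first 4 groups was an equal-mass pool of RNA from 3 biological replicates, so p-values measure the spread between pools and not between animals. In such bulk samples fewer cells of a type and less RNA per cell cannot be told apart.

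Laminins are trimers of an alpha, a beta and a gamma chain that build the basement membrane under epithelia. Laminin-332, which holds the products of Lama3 and Lamb3, is secreted by basal epithelial cells and anchors them, whereas laminin-511 combines the products of Lama5, Lamb1 and Lamc1. Integrin alpha-6 beta-4 binds laminin-332 in hemidesmosomes, where plectin and the dystonin isoform BP230 tie it to keratin filaments, and integrin alpha-3 beta-1 binds the same laminins at contacts linked to actin. In the prostate, basal cells rest on this membrane beneath the luminal cells.

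Library totals behind the RPKM values were 30308844 to 35686706 reads with Ezh2 intact and 47554228 to 55592506 with Ezh2 deleted. Depth and Ezh2 state thus ran together, and the part of depth in the comparisons was not tested. Count totals ranged from 28831228 to 37482322. Setd2 was at 17.0 and 16.1 RPKM in the control pair, 8.75 and 10.3 with Setd2 deleted, 14.6 and 11.6 with Ezh2 deleted and 8.99 and 7.54 with both deleted, so every Setd2-deleted library lay below every library with Setd2 intact. Ezh2 was at 19.4 and 20.8 RPKM in the control pair, 24.2 and 20.7 with Setd2 deleted, 13.8 and 11.6 with Ezh2 deleted and 16.6 and 14.2 with both deleted, again with no overlap by genotype. The tables give 1 value a gene, so transcripts without the deleted exons are counted too. The 5 general epithelial markers summed to 3084 to 4508 RPKM over the 8 libraries, and the 5 endothelial markers to at most 0.213. The 8 fibroblast and smooth muscle markers summed to 2.13 to 4.18 RPKM with Ezh2 intact and to 29.1 to 33.8 with Ezh2 deleted, where Dcn led with 12.6 to 25.5 and Acta2 was at most 0.223. The 6 immune markers summed to 21.8 to 39.5 RPKM with Ezh2 intact, nearly all of it Cd68, and to 13.0 to 14.9 with Ezh2 deleted, where Lyz2 reached 8.20. Within Ezh2 null and within double null, 6 members were higher in library 2 and the same 3 (Lama3, Itga6 and Dst) in library 1.

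Promoter windows, from 250 bases before to 50 after a transcription start in RefSeq (GRCm38.p6), were taken for Lamb3, Lama5, Itga3 and Dst. The first 3 of these are printed, each for its first listed start, since these genes fell together by very different amounts after Ezh2 deletion. Capitals mark matches to GGGCGG or its complement CCGCCC, the letters bound by Sp factors.
Lamb3, chr1:193301744-193302043, plus strand: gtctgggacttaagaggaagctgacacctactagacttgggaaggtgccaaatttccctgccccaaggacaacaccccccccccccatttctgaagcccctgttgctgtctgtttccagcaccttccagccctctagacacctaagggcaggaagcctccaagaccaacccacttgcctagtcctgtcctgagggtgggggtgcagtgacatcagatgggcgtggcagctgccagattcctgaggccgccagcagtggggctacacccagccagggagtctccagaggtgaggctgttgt
Lama5, chr2:180225810-180226109, minus strand: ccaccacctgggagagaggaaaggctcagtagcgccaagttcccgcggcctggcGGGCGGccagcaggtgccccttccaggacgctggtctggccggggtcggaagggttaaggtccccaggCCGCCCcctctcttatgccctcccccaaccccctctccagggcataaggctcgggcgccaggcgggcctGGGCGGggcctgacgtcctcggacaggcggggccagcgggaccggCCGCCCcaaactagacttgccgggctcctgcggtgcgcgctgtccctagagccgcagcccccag
Itga3, chr11:95076665-95076964, minus strand: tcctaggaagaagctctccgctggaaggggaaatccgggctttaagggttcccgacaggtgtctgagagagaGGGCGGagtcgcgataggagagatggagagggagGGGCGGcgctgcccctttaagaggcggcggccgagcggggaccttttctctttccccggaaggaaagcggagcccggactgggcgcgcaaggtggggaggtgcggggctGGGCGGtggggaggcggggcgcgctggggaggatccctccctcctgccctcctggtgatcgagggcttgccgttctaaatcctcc
The Lamb3 window lies inside the gene's span in the table, downstream of its outermost start, and held 2 CG dinucleotides, against a median of 7 over 32851 windows of the same length. The windows of Lama5 and Itga3 held 24 CG dinucleotides each. Matches to GGGCGG on either strand numbered 4 for Lama5 and 3 for Itga3, and 35.7% of all windows had at least 1, while the Lamb3 window had none. None of the 3 printed windows held TGANTCA (the AP-1 letters, in 7.81% of all windows) or TATAAA (in 13.6%), on either strand. CANNTG, the E-box letters, occurred 3 times for Lamb3, 2 times for Lama5 and 1 time for Itga3, and 72.3% of all windows had a match. Of the windows not printed, the first of Dst held 31 CG dinucleotides and 4 matches to GGGCGG. The second of Itga3 held only 5 CG dinucleotides, 1 match to GGGCGG and TGAATCA, 1 match to the AP-1 letters. The second windows of Lamb3 and Dst held 5 and 6 CG dinucleotides and no match to GGGCGG, so these numbers depend on the start chosen. For Lama3, Lamc1, Itga6, Itgb4 and Plec no window was at hand. No match overlapped one to another motif, and a match describes letters and not a bound site.

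Lama3 and Lamb3, both chains of laminin-332, fell further than the other laminin chains given here when Ezh2 was deleted with Setd2 intact. Lama3 (Entrez 16774, chromosome 18, plus strand), the alpha-3 chain that carries the integrin-binding end of laminin-332, was at 215 and 198 RPKM in the control pair, 230 and 206 with Setd2 deleted, 11.3 and 10.8 with Ezh2 deleted and 17.9 and 17.8 with both deleted. The 4 libraries with Ezh2 intact were all high and the 4 with Ezh2 deleted all low, with the double null pair above the Ezh2 null pair. The mean of 11.1 ± 0.362 RPKM (SD, n = 2) in Ezh2 null was 18.7-fold below the 207 ± 11.6 of control, and the log2 fold change on the log2(RPKM + 1) scale was −4.11 ± 0.121 (SE; limma adjusted p = 1.73e-08). Lama3 moved from place 269 of all genes by mean RPKM in control to place 5609 in Ezh2 null.

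Lamb3 (Entrez 16780, mm10 chromosome 1 from 193294353 to 193343878, plus strand), the beta-3 chain found in laminin-332, was at 353 and 351 RPKM in the control pair, 336 and 405 with Setd2 deleted, 39.8 and 44.2 with Ezh2 deleted and 52.0 and 58.1 with both deleted. As for Lama3, no library with Ezh2 deleted came near one with Ezh2 intact, and both double null libraries lay above both Ezh2 null libraries. Lamb3 was 8.38-fold lower in Ezh2 null than in control (limma log2 fold change −3.04 ± 0.140 SE, adjusted p = 2.01e-07).

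The chains of laminin-511 fell by less. Lama5 (Entrez 16776, chromosome 2 from 180176373 to 180225912, minus strand), the alpha-5 chain that most adult epithelia lay down, was at 152 and 175 RPKM in the control pair, 122 and 171 with Setd2 deleted, 86.7 and 110 with Ezh2 deleted and 78.4 and 98.1 with both deleted. Its 4 libraries with Ezh2 deleted all lay below the 4 others, but the gap from 110 to 122 was small. Lama5 was 1.66-fold lower in Ezh2 null than in control (limma log2 fold change −0.73 ± 0.198 SE, adjusted p = 0.0106), and the call was lost without control 2 (limma adjusted p = 0.0823) or Ezh2 null 1 (0.0613), within 0.000578 to 0.0823 over all alternatives.

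Lamc1 (Entrez 226519, chromosome 1 from 153218922 to 153332786, minus strand), the gamma-1 chain shared by most laminins, was at 77.2 and 78.5 RPKM in the control pair, 60.1 and 83.5 with Setd2 deleted, 38.6 and 40.2 with Ezh2 deleted and 35.3 and 36.5 with both deleted. The libraries with Ezh2 deleted were close to one another and all below the rest. Lamc1 was 1.98-fold lower in Ezh2 null than in control (limma log2 fold change −0.96 ± 0.156 SE, adjusted p = 0.000621).

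**Figure D1:**
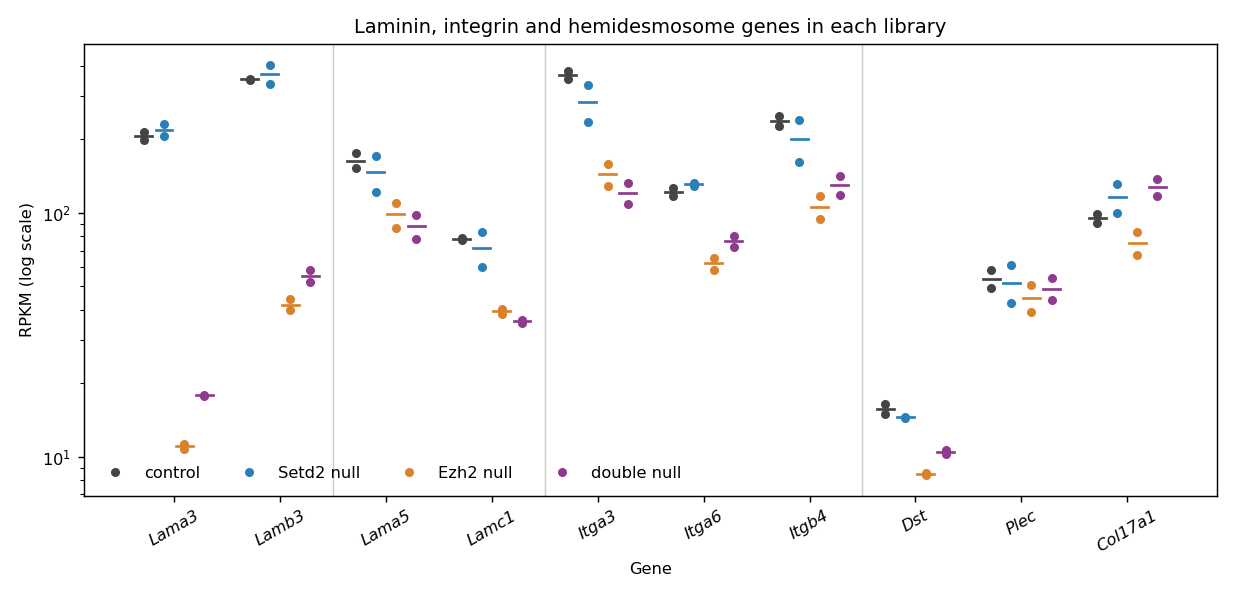
RPKM on a log axis of the 9 genes and Col17a1 in each library (points, 2 a group) with group means (bars), for the 4 groups from 3-month-old mice. Lama3 drops from 198 to 230 RPKM in the libraries with Ezh2 intact to 10.8 to 17.9 in those with Ezh2 deleted, whereas the Plec groups overlap.

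Because the chains fell unequally, the make-up of each chain class per gene length shifted. Lama3 made up 55.6% ± 3.89 (SD, n = 2) of all alpha chain RPKM in control and 59.8% ± 7.57 in Setd2 null, but 10.1% ± 1.81 with Ezh2 deleted and 16.8% ± 2.26 with both deleted. Lama5 took most of the remainder, with 44.0% in control and 88.8% in Ezh2 null, although its own level was lower there. Among beta chains, Lamb3 held 83.2% ± 0.566 in control and 39.5% ± 1.06 in Ezh2 null.

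Lamb2, the beta-2 chain typical of vessel and muscle basement membranes, went from 5.71% ± 0.516 of beta chain RPKM in control to 44.2% ± 2.05 in Ezh2 null. This was a rise in level as well as in share, from 22.5 and 25.8 RPKM in control to 42.2 and 52.0 in Ezh2 null (log2 fold change 0.93, limma adjusted p = 0.000771). The summed RPKM of the alpha chains went from 372 ± 4.95 to 111 ± 16.1 and that of the beta chains from 423 ± 1.41 to 106 ± 10.8.

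**Figure D2:**
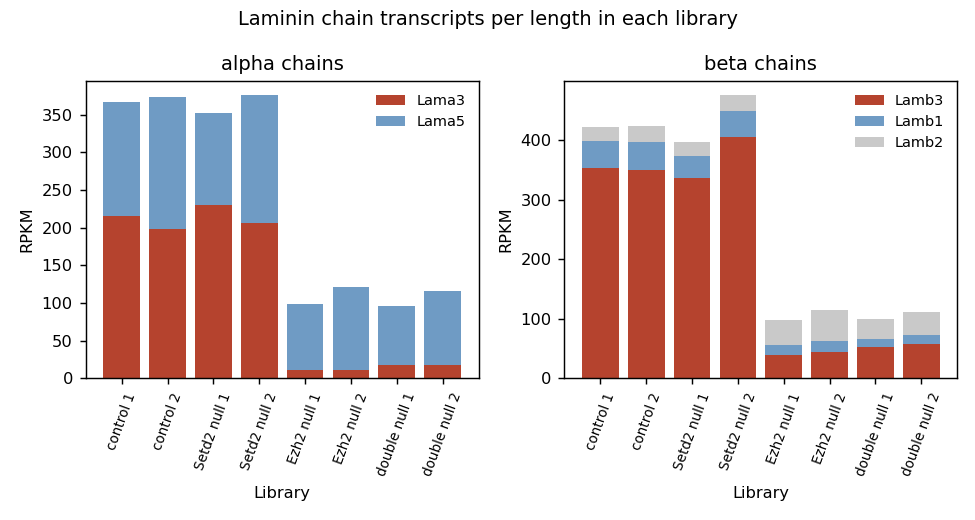
Stacked bars of RPKM for the alpha (Lama3, Lama5) and beta (Lamb3, Lamb1, Lamb2) laminin chains in each of 8 libraries; rarer alpha chains are not drawn. Lama3 and Lamb3 (red) make up most of every bar with Ezh2 intact, and Lama3 is a thin base at 10.8 to 17.9 RPKM with Ezh2 deleted.

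Within libraries, the log2 ratio of Lama3 to Lama5 averaged 0.47 ± 0.33 (SD, n = 4) with Ezh2 intact and −2.72 ± 0.53 with Ezh2 deleted, a difference of −3.19. The log2 ratio of Lamb3 to Lamc1 averaged 2.28 ± 0.15 and 0.35 ± 0.31, a difference of −1.93. Both differences separated the 4 libraries from the 4 others completely and gave p = 0.0286 in a two-sided exact permutation test, the smallest p this design allows. With 4 ratios examined, the adjusted p was 0.0571 for each in that exact test, short of 0.05. For all 4 ratios the test shuffled the 8 libraries regardless of Setd2 state, as if independent. That is not shown, since library 1 minus library 2 correlated over genes at 0.933 between Ezh2 null and double null. With Setd2 intact the differences were −3.48 and −2.09, and with Setd2 deleted −2.89 and −1.77.

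All 3 integrin members fell in Ezh2 null. Itga3 (Entrez 16400, chromosome 11 from 95044475 to 95076811, minus strand), which pairs with integrin beta-1, was at 353 and 382 RPKM in the control pair, 236 and 335 with Setd2 deleted, 129 and 158 with Ezh2 deleted and 109 and 133 with both deleted. The groups formed 2 tiers by Ezh2 state, with the Setd2 null pair spread widely within the upper one. Itga3 was 2.56-fold lower in Ezh2 null than in control (limma log2 fold change −1.35 ± 0.192 SE, adjusted p = 0.000273).

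Itga6 (Entrez 16403, chromosome 2 from 71786886 to 71858427, plus strand), the alpha subunit of the hemidesmosome integrin, was at 117 and 126 RPKM in the control pair, 129 and 133 with Setd2 deleted, 65.5 and 58.5 with Ezh2 deleted and 80.3 and 72.5 with both deleted. Each group stood clear of the others, with Setd2 null highest and Ezh2 null lowest. Itga6 was 1.96-fold lower in Ezh2 null than in control (limma log2 fold change −0.96 ± 0.127 SE, adjusted p = 0.000174). Itgb4 (Entrez 192897, chromosome 11 from 115974725 to 116008412, plus strand), the beta-4 subunit whose long tail holds plectin, was at 227 and 248 RPKM in the control pair, 162 and 239 with Setd2 deleted, 93.9 and 117 with Ezh2 deleted and 118 and 141 with both deleted. The lowest library with Ezh2 intact, Setd2 null 1, was still above the highest with Ezh2 deleted.

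Itgb4 was 2.25-fold lower in Ezh2 null than in control (limma log2 fold change −1.17 ± 0.201 SE, adjusted p = 0.000904). For the 2 subunits of the hemidesmosome integrin, the log2 ratio of Itgb4 to Itga6 averaged 0.78 ± 0.30 (SD, n = 4) with Ezh2 intact and 0.76 ± 0.26 with Ezh2 deleted (exact permutation p = 0.971, adjusted over 4 ratios 0.971). For Itga6 to Itga3 the averages were −1.35 ± 0.34 and −0.93 ± 0.41, and the libraries overlapped (exact permutation p = 0.171, adjusted 0.229).

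The plakins differed from each other. Dst (Entrez 13518, chromosome 1 from 33908213 to 34308662, plus strand), which encodes dystonin, was at 16.5 and 14.9 RPKM in the control pair, 14.6 and 14.4 with Setd2 deleted, 8.59 and 8.41 with Ezh2 deleted and 10.7 and 10.3 with both deleted. All 4 libraries with Ezh2 deleted lay below the 4 others. Dst was 1.84-fold lower in Ezh2 null than in control (limma log2 fold change −0.81 ± 0.113 SE, adjusted p = 0.000247). The table has 1 value for all Dst isoforms, so the epithelial isoform BP230 is not told apart from the rest.

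Plec (Entrez 18810, chromosome 15 from 76170974 to 76231378, minus strand), the plakin that also links keratin to other structures in the cell, was at 49.3 and 58.1 RPKM in the control pair, 42.6 and 60.8 with Setd2 deleted, 39.3 and 50.4 with Ezh2 deleted and 43.8 and 53.8 with both deleted. The 4 groups overlapped throughout. Its log2 fold change in Ezh2 null against control was −0.26 with a 95% interval from −0.71 to 0.19 (limma adjusted p = 0.288). That interval does not show that Plec was unaltered. Plec passed in 1 of 16 alternatives, with the replicate number as a block (limma adjusted p = 0.0416, within 0.0416 to 0.782). Col17a1 (Entrez 12821, chromosome 19 from 47646341 to 47692042, minus strand), the collagen that spans the membrane at hemidesmosomes, was at 91.0 and 99.1 RPKM in the control pair, 100 and 131 with Setd2 deleted, 67.1 and 83.4 with Ezh2 deleted and 117 and 138 with both deleted. The Ezh2 null pair was lowest and the double null pair overlapped the Setd2 null pair. The difference between Ezh2 null and control, −0.34 in log2, did not pass (limma adjusted p = 0.118), but it passed with quantile normalization (0.0402), median-ratio scaling (0.0353) and edgeR on reads recovered from the RPKM values (0.0339), within 0.0176 to 0.477 over all alternatives.

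Altogether, 8 of the 9 members were called lower in Ezh2 null against control and none higher, beside 20.5% of 11338 genes tested that were called lower and 36.1% called higher. The median log2 fold change was −0.96 over the members and 0.18 over all genes tested. After quantile normalization, which moved the latter median to 0.01, 8 members were again called lower, and the calls over all genes changed from 4096 higher and 2320 lower to 3177 higher and 3158 lower. Plec was the exception. Besides, for the same 8 members every library with Ezh2 deleted lay below every library with Ezh2 intact, as it did for 21.6% of all genes tested.

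The order of levels per length changed with these falls. Like the chain shares and ratios above, the order rests on 1 length a gene, whichever isoforms were expressed. The lengths behind the RPKM values were, for instance, 34985 bases for Dst and 11941 for Lama3. In control the order by mean RPKM was Itga3, Lamb3, Itgb4, Lama3, Lama5, Itga6, Col17a1, Lamc1, Plec and Dst, and the libraries of neighbours did not overlap at any step. In Ezh2 null it was Itga3, Itgb4, Lama5, Col17a1, Itga6, Plec, Lamb3, Lamc1, Lama3 and Dst, where Itgb4 and Lama5 overlapped, as did Plec, Lamb3 and Lamc1 from neighbour to neighbour. Thus Lama3 and Lamb3 went from above Lama5 to the level of Lamc1 or below. The order in Setd2 null was that of control except that Lamb3 stood above Itga3 and Lama3 above Itgb4. There Lama3, Itgb4, Lama5, Itga6 and Col17a1 overlapped from neighbour to neighbour, as did Lamc1 and Plec. In double null it was Itgb4, Col17a1, Itga3, Lama5, Itga6, Lamb3, Plec, Lamc1, Lama3 and Dst, where Itgb4, Col17a1 and Itga3 overlapped from neighbour to neighbour, as did Lama5 and Itga6, and Lamb3 and Plec.

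Ezh2 deletion had the same direction in cells that also lacked Setd2. In double null against Setd2 null, 8 of the 9 members were again called lower and none higher, beside 19.4% of all genes tested called lower and 35.6% higher, and the median log2 fold change was −0.77 over the members and 0.18 over all genes. After quantile normalization the calls over all genes in this comparison changed from 4036 higher and 2205 lower to 2921 higher and 3122 lower. The 2 comparisons share no library but come from the same limma fit. The difference between library 1 and library 2 correlated over genes at 0.933 between Ezh2 null and double null. That the 2 comparisons are independent is therefore not shown.

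Lama3 was 12.2-fold lower in double null than in Setd2 null (limma log2 fold change −3.54 ± 0.121 SE, adjusted p = 3.80e-08) and Lamb3 was 6.74-fold lower. The chains of laminin-511 fell by amounts near those found with Setd2 intact. Lamc1 was 2.00-fold lower (limma adjusted p = 0.000677). Lama5 was 1.66-fold lower (limma adjusted p = 0.0128), a call lost without Setd2 null 2 (0.0933) or double null 1 (0.0750), within 0.000676 to 0.0933 over all alternatives.

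Of the integrins, Itga3 was 2.36-fold lower (limma adjusted p = 0.000566) and Itga6 1.71-fold lower (0.000744) in double null than in Setd2 null. The hemidesmosome genes Itgb4 and Dst fell by smaller amounts. Itgb4 was 1.55-fold lower (limma adjusted p = 0.0287), which was lost without Setd2 null 2 (0.181), without double null 1 (0.133) and with no filter on low values (0.0665), within 0.00431 to 0.181. Dst was 1.38-fold lower (limma adjusted p = 0.00974), which was lost without double null 2 (0.0655), within 0.00160 to 0.0655. For Plec the log2 fold change was −0.07 (95% interval −0.51 to 0.38, limma adjusted p = 0.796).

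**Figure D3:**
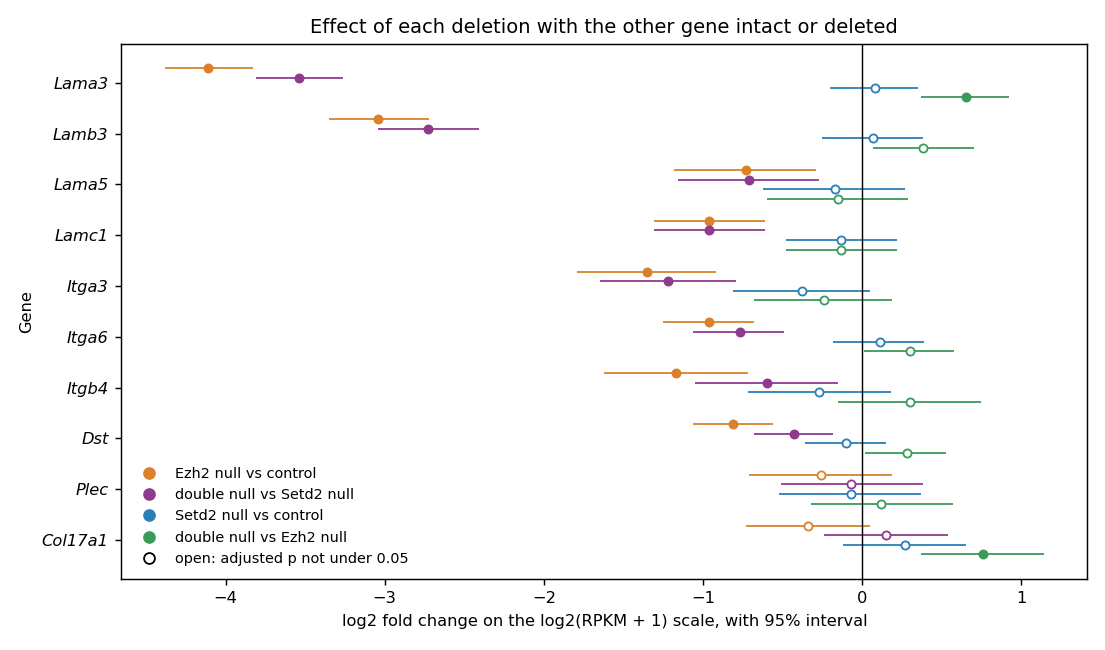
Log2 fold changes on the log2(RPKM + 1) scale with 95% intervals from limma for 10 genes in 4 comparisons; filled points passed an adjusted p of 0.05 and open ones did not. The 2 effects of Ezh2 deletion lie left of 0 for every gene but Plec and Col17a1, whose intervals there include 0, and of the effects of Setd2 deletion those on Lama3 and Col17a1 in double null against Ezh2 null passed.

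Deletion of Setd2 alone moved none of these genes past the test. Setd2 itself, 1.74-fold lower with the pairs apart, did not pass in this comparison either (limma adjusted p = 0.0563). In Setd2 null against control limma called 0 of 9 members, beside 1.07% of all genes, and 0 had an unadjusted p under 0.05. With edgeR on recovered reads 0 members were called, beside 97 of all genes. The log2 fold changes ran from −0.38 for Itga3 (95% interval −0.81 to 0.05, limma adjusted p = 0.497) to 0.11 for Itga6 (−0.18 to 0.39). The Setd2 null pair was also less even than the control pair: the median coefficient of variation over the members was 23.1% in Setd2 null and 5.64% in control, and 7 members were higher in Setd2 null 2.

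Among cells with Ezh2 deleted, Lama3 was higher where Setd2 was deleted as well, though far below its level with Ezh2 intact. In double null against Ezh2 null 1 of 9 members was called higher, beside 3.79% of all genes, and none lower, beside 2.70%. That member was Lama3, 1.61-fold higher (limma log2 fold change 0.65 ± 0.121 SE, adjusted p = 0.0120). The call was lost without any one of the 4 libraries, with a limma adjusted p of 0.0533 without Ezh2 null 1, 0.0743 without Ezh2 null 2, 0.0744 without double null 1 and 0.0801 without double null 2, within 0.00421 to 0.0801 over all alternatives.

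Lamb3 was 1.31-fold higher and did not pass (log2 fold change 0.38, 95% interval 0.07 to 0.70, limma adjusted p = 0.195). Itga6 (0.30), Itgb4 (0.30) and Dst (0.28) had positive log2 fold changes of like size that did not pass either (limma adjusted p = 0.285, 0.616 and 0.256). The fit did not model the difference between library 1 and library 2 that Ezh2 null and double null share. Col17a1 was called higher, 1.70-fold (limma adjusted p = 0.0294), but lost the call without control 1 (0.0637), control 2 (0.0636), Ezh2 null 1 (0.182) or double null 2 (0.186), with no filter (0.0670) and with only the groups compared (0.0913), within 0.00421 to 0.186.

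Whether the effect of Ezh2 deletion depended on Setd2 was tested as the interaction of both deletions. None of the 9 members passed with limma, beside 2.59% of all genes, and 2 had an unadjusted p under 0.05. With edgeR on recovered reads 0 members were called, beside 194 of all genes. The interaction was 0.57 ± 0.171 SE on the log2 scale for Lama3 (limma adjusted p = 0.163) and 0.38 for Dst (limma adjusted p = 0.437). Lama3 passed in 1 of 15 alternatives, with the replicate number as a block (limma adjusted p = 0.0469, within 0.0469 to 0.591 over all alternatives).

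Other genes of the pathway were followed in 6 lists of 48 genes in all, of which Col17a1 was given above. In Ezh2 null against control, 20.5% of all genes tested were called lower and 36.1% higher, with a median log2 fold change of 0.18. Of 2 other laminin chains tested in Ezh2 null against control, Lamb2 was higher, as given above, and Lamb1, the beta chain of laminin-511, was lower, at 46.6 and 46.9 RPKM in the control pair and 16.7 and 17.6 with Ezh2 deleted (log2 fold change −1.40). Other receptors for laminin fell together with the integrin members: of 6 tested in Ezh2 null against control, 4 were lower and 1 higher, with a median log2 fold change of −1.17. Itga2, the alpha subunit of a collagen and laminin receptor, was at 256 and 255 RPKM in control and 20.1 and 18.1 in Ezh2 null (log2 fold change −3.67). Itgb1, the beta subunit that Itga2 and Itga3 need, was at 613 and 532 RPKM in control and 152 and 121 in Ezh2 null (−2.06). The heparan sulfate proteoglycans Sdc1 and Sdc4 had log2 fold changes of −1.43 and −0.91. Dag1, the dystroglycan gene, was at 0.14 and did not pass. Bcam, a receptor specific for laminin alpha-5, rose by 0.59, a call that was lost with median-ratio scaling (limma adjusted p = 0.0786), without control 1 (0.0974) or Ezh2 null 2 (0.0936) and with edgeR on recovered reads (edgeR adjusted p = 0.0662).

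Genes that link integrins to actin were 7 of 10 lower and 0 higher in Ezh2 null against control, with a median of −0.71. Over all genes tested, 20.5% were lower and 36.1% higher, with a median of 0.18. The kindlins Fermt1 and Fermt2, which switch integrins on, had log2 fold changes of −2.03 and −0.95, the actin crosslinker Actn1 −1.29 and the integrin-linked kinase Ilk −0.76. Of basement membrane partners, 9 of 10 were lower and 0 higher (median −0.92). Among these were Col7a1 (−2.35), the anchoring fibril collagen that laminin-332 binds, the network collagen Col4a2 (−1.37), the netrin Ntn4 (−1.53) and the laminin-binding linker Nid1 (−0.92). Of 3 proteases that cut laminin or its partners, Mmp14 (−1.08) and Bmp1 (−0.91) were lower and Mmp2 (1.80, from 0.329 to 3.71 RPKM) was higher.

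Of the 6 other hemidesmosome and keratin anchor genes tested in Ezh2 null against control, limma called 0 lower and 1 higher, and 2 had an unadjusted p under 0.05, Krt5 and Eppk1. The median log2 fold change was −0.34 beside 0.18 over all genes. With edgeR on recovered reads 4 were called lower, Col17a1, Cd151, Erbin and Eppk1, and 1 higher, Krt5. Over all genes that edgeR fit called 3070 lower and 3059 higher, whereas limma called 2320 lower and 4096 higher. Besides Col17a1, the limma log2 fold changes that did not pass were −0.34 for Cd151, −0.42 for Erbin and −0.42 for Eppk1, with control and Ezh2 null libraries apart for each, and 0.28 for Krt14. The Eppk1 value (limma adjusted p = 0.0534) passed in 8 of 15 alternatives, that of Erbin (0.0819) in 6 of 16 and that of Cd151 (0.0918) in 3 of 16. The gene called higher was the basal keratin Krt5, at 543 and 551 RPKM in the control pair, 1107 and 1358 with Ezh2 deleted and 1812 and 2084 with both deleted. Its log2 fold change was 1.16 in Ezh2 null against control (limma adjusted p = 0.000299) and 1.82 in double null against Setd2 null (1.81e-05). So the keratin that hemidesmosomes anchor was higher in the libraries where Lama3, Lamb3 and Itgb4 were lower. In double null against Ezh2 null, Krt5 was called (0.66, limma adjusted p = 0.0471), a call lost in 10 of 16 alternatives (up to 0.321), among them without either control, either Ezh2 null or either double null library.

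Of the 8 basal prostate markers, 3 were called higher and 1 lower in Ezh2 null against control. Over all genes tested, 36.1% were called higher and 20.5% lower, so in this comparison the count sets these markers little apart. The lower one was Krt17, at 523 and 486 RPKM in the control pair and 87.8 and 127 with Ezh2 deleted. In double null against Setd2 null, 6 of the 8 were called higher and 1 lower, beside 35.6% and 19.4% of all genes tested. In double null against Ezh2 null, 3 were called higher and 0 lower, beside 3.79% and 2.70%. The sum of the 8, led by Krt5 and Krt15 in the libraries with Ezh2 deleted, was 2356 to 2385 RPKM in control, 2140 to 2672 in Setd2 null, 3628 to 4528 with Ezh2 deleted and 5084 to 5937 with both deleted. None was at 0 in any group, and Trp63, the defining basal factor, was at 21.3 and 21.3 RPKM in control and 18.3 and 17.5 in Ezh2 null. The 11 luminal markers summed to 4246 to 5517 RPKM with Ezh2 intact and 5123 to 5662 with Ezh2 deleted, and the secretory marker Pbsn was at 0 with Ezh2 intact and 2.19 to 3.95 with Ezh2 deleted. Epcam, a marker of all epithelium, was at 1047 to 1225 RPKM with Ezh2 intact and 291 to 330 with Ezh2 deleted. The part that these markers, or the fibroblast and immune markers above, have in the laminin and integrin results was not tested.

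In double null against Setd2 null the counts in the lists were alike, beside 19.4% of all genes tested called lower and 35.6% called higher. Of 2 laminin chains 1 was lower and 1 higher, and of 6 receptors 4 were lower and 1 higher. Lower were also 7 of 10 linkers to actin and 8 of 10 basement membrane partners. Of 3 proteases 2 were lower and 1 higher. The laminin chain that was higher was Lamb2 (log2 fold change 0.56), a call lost with median-ratio scaling, with edgeR on recovered reads and without Setd2 null 1 or double null 2 (adjusted p from 0.0621 to 0.0895 in these). Of the 6 hemidesmosome and keratin anchor genes 1 was lower, the tetraspanin Cd151 that accompanies laminin-binding integrins (−0.57, limma adjusted p = 0.0116; lost without Setd2 null 1 or double null 1, at 0.0592 and 0.0902). The 2 that were higher were Krt5 and Krt14, the latter with a call lost without Setd2 null 2 (limma adjusted p = 0.125), without double null 2 (0.0955), with median-ratio scaling (0.0524) and with no filter on low values (0.0502). These were named after their values were seen. In Setd2 null against control, none of the tested genes of the 6 lists was called.

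The genes whose centred profile over the 8 libraries was most like the mean of Lama3 and Lamb3 were Fxyd5, Itga2, Fam167a, Nedd9 and Car9. Their root mean square differences from that profile were 0.101, 0.124, 0.149, 0.171 and 0.173 on the log2(RPKM + 1) scale. Fxyd5 was at 27.7 and 26.7 RPKM in the control pair and 32.8 and 34.6 with Setd2 deleted. It was at 1.57 and 1.64 with Ezh2 deleted and 2.21 and 2.47 with both deleted. The step from Ezh2 null to double null is part of the profile by which Fxyd5 was chosen, so it is no separate finding. Itga3 came at place 548 of 11338 genes, Lamc1 at 844, Itga6 at 917, Itgb4 at 926, Lama5 at 1264, Dst at 1358 and Plec at 3338. The likeness is a description over 8 libraries of 4 genotypes.

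In the organoids from 2-month-old mice, K735R against wild-type Ezh2 gave no call among the 9 members with edgeR (1 with an unadjusted p under 0.05, Dst), beside 0.00757% of 13203 genes tested. DESeq2 called 2.16% of genes and 0 members. Levels here are CPM (counts relative to the library total), which are not per length and are compared only within a gene.

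Lama3 was at 725 and 1294 CPM in the wild-type pair and 1580 and 1309 in the K735R pair. Wild-type library 1 stood far below the other 3, and only the narrow gap from 1294 to 1309 kept the groups apart. The log2 fold change was 0.52 with a 95% interval from −0.29 to 1.32 (edgeR adjusted p = 0.664). Lamb3 was at 775 and 994 against 964 and 934 (edgeR adjusted p = 0.885).

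Lama5, at 1227 and 1540 against 1157 and 1189 CPM, was lower in both K735R libraries (log2 fold change −0.24, edgeR adjusted p = 0.685). Lamc1 was at 316 and 342 CPM against 355 and 344 (0.09, 95% interval −0.17 to 0.35). The integrin Itga3 was at 1644 and 2187 CPM against 1857 and 1868, where both K735R libraries fell between the wild-type ones. Itga6 was higher in both K735R libraries, at 570 and 611 against 881 and 662 CPM, and did not pass (log2 fold change 0.39, edgeR adjusted p = 0.583). Itgb4, at 1358 and 1678 against 1743 and 1420 CPM, overlapped. Of the plakins, Dst was at 577 and 503 CPM against 423 and 433, lower in both K735R libraries (log2 fold change −0.34, edgeR adjusted p = 0.511), and Plec was nearly level at 1075 and 1108 against 1166 and 1109.

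**Figure D4:**
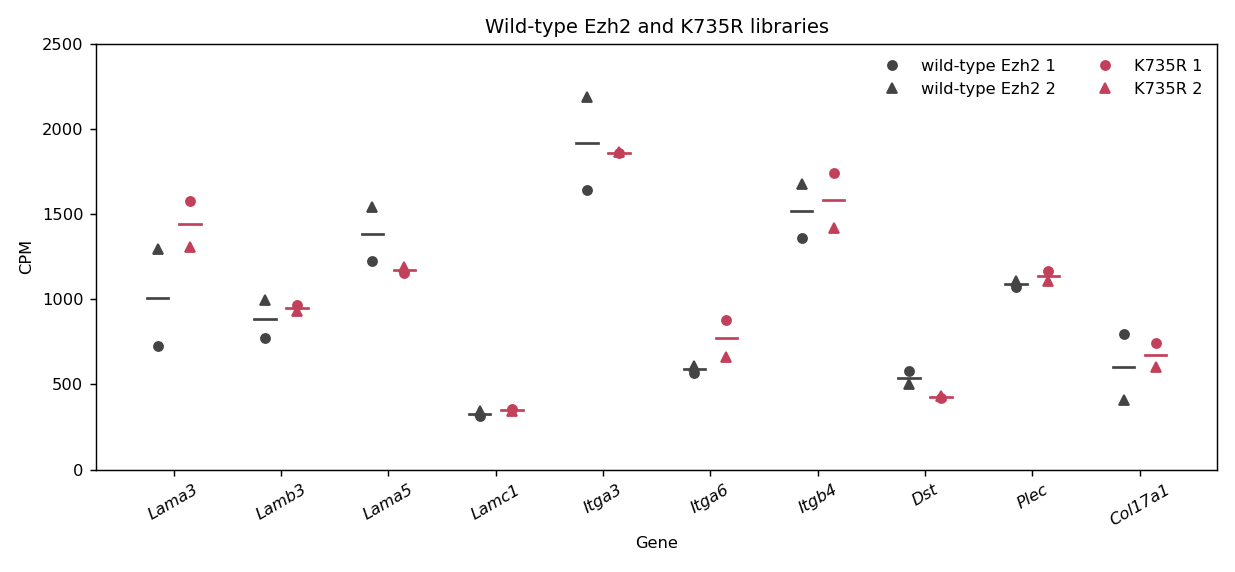
CPM of the same 10 genes with wild-type Ezh2 and K735R, where circles are library 1, triangles library 2 and bars group means. For Lama3 wild-type library 1, at 725 CPM, sits below the other 3 libraries.

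These values depended on which wild-type library was kept. Without wild-type library 2, edgeR called 1595 genes and 3 members, namely Lama3 (log2 fold change 1.01, adjusted p = 0.00170, within 0.00170 to 1 over all alternatives), Lamb3 (0.30, 0.0338, within 0.0338 to 1) and Dst (−0.42, 0.00685, within 0.00685 to 1). Without wild-type library 1, edgeR called 644 genes and 1 member, Lama5 (−0.39, adjusted p = 0.0202, within 0.0202 to 1), and the log2 fold change of Lama3 was 0.16. Without 1 or the other K735R library it called 0 genes. In each such fit the lone library is assumed to vary like the other pair. None of the tested genes of the 6 lists was called by edgeR with all 4 libraries.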

How the data were processed

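RNA of 12 libraries was sequenced as paired reads of 150 nucleotides, per the labels. The authors deposited RPKM values for 8 libraries and whole-number counts for the other 4, per the file headers and the values. The submitters' processing notes name mm10, Bowtie and RSEM, and no source used here gives versions or the strand setting. RPKM steps gave whole reads for 13745 of 13748 genes above 0 in all 8 libraries (99.98%, within 0.01 reads), which set the library totals. The 11338 genes that averaged 1 RPKM or more entered, as log2(RPKM + 1), 1 limma 3.58.1 fit of all 8 libraries (trended, robust). Counts were tested with edgeR 4.0.16 (TMM, its filter on low counts, robust quasi-likelihood; 13203 genes), with DESeq2 1.42.0 as an alternative, in R 4.3.3. CPM used TMM-scaled totals. P-values were two-sided and adjusted by the Benjamini-Hochberg method over all genes tested, with calls at 0.05. The fits were tested on simulated data. The alternatives were other scalings, filters, pseudocounts and tools, a replicate block, a fit of only the groups compared, and leaving out each library. The members and lists were chosen with earlier results of these data known. By rule the text names the 9 members, Col17a1 and up to 4 called genes a list with the smallest p in Ezh2 null against control. It also names the 5 genes most like Lama3 and Lamb3, with predicted genes and pseudogenes left out. Outside this rule it names Dag1, Bcam, Cd151, Erbin, Eppk1 and Krt14, and single cell type markers. The 3 chromatin samples were not analysed here, and some items are not reported here.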

Additional observations from a re-analysis of the deposited data

How the results depend on the processing

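In Ezh2 null against control, 141 of 144 member values over 16 alternatives kept their direction and side of the threshold. The exceptions were Lama5 without control 2 or Ezh2 null 1, and Plec with the replicate number as a block (limma adjusted p = 0.0416). Replicate numbers were not treated as pairs, since no label ties them to a shared animal, batch or day. Correlations of same-numbered deviations were 0.933 between Ezh2 null and double null, 0.105 to 0.358 between other groups and 0.101 in the counts. The difference that Ezh2 null and double null share was not modelled in the main fit. The block is 1 term for all groups, and with it double null against Ezh2 null had 1078 genes and 1 member called. With the block, genes called were 231 for Setd2 null against control, 469 for the interaction, with 1 member, Lama3 (limma adjusted p = 0.0469, within 0.0469 to 0.591), and 4 for K735R.

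For Setd2 null against control, quantile normalization called 56 genes, no filter 67, a minimum mean of 5 RPKM 62, only the groups compared 15, and leaving out a library 24 to 132. For double null against Ezh2 null (736), a mean of at least 5 RPKM called 465, only the groups compared 399, and leaving out a library 361 to 799, with 0 to 1 members. For the interaction, a mean of at least 5 RPKM called 146, edgeR on recovered reads 194, and leaving out a library 142 to 278. For K735R, DESeq2 called 285 genes, and leaving out a library gave 0 to 1595, with 0 to 3 members. The cause was not tested.

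The log2 ratio of Lamb3 to Lamc1 differed by −2.09 with Setd2 intact and −1.77 with Setd2 deleted, and that of Itgb4 to Itga6 ran from −0.16 to 0.07 when a library was left out. Leaving out a library turned the sign of some log2 fold changes that had not passed. In Setd2 null against control the ranges were Lama5 −0.41 to 0.07, Lamb3 −0.06 to 0.20, Lamc1 −0.37 to 0.10, Itgb4 −0.55 to 0.01, Plec −0.32 to 0.18. In double null against Setd2 null the ranges were Plec −0.32 to 0.19, Col17a1 −0.04 to 0.34. In double null against Ezh2 null the ranges were Lama5 −0.32 to 0.02, Plec −0.05 to 0.30. For the interaction the ranges were Lama5 −0.22 to 0.26, Lamc1 −0.23 to 0.24, Itga3 −0.11 to 0.39, Plec −0.06 to 0.45. For K735R the ranges were Lamb3 −0.07 to 0.30, Itga3 −0.23 to 0.19, Itgb4 −0.09 to 0.23, Col17a1 −0.23 to 0.73. Col17a1 in double null against Setd2 null was −0.04 with median-ratio scaling and −0.03 with edgeR on recovered reads.

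With 2 pools a group, leaving out 1 leaves a lone library assumed to vary like the others. Whether depth or the number of libraries limits the calls was not tested.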
